A study of Canis lupus familiaris with 69 samples.

Results

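Keratins of basal and squamous epithelium (KRT5, KRT14, KRT15 and KRT17, with TP63, a transcription factor of basal cells) and of simple epithelium (KRT7, KRT8, KRT18, KRT19 and KRT23) were followed in the endometrium of 69 female dogs. The 10 genes were chosen by symbol in the platform annotation, and 9 of them were measured among 15947 genes. KRT14, the usual partner of KRT5, had no probe set under its own symbol and has no value here. Each measured gene had 1 probe set with a single symbol, and each dog gave 1 array. Total RNA of endometrial tissue was hybridised to the Canine Gene 1.0 ST array, and the deposited values are on the log2 scale.

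The dogs were 21 healthy females in diestrus (the luteal phase of the cycle), 16 with cystic endometrial hyperplasia (CEH, overgrowth of the uterine lining with dilated glands), 15 with mucometra (a uterus filled with sterile mucus) and 17 with pyometra (a uterus filled with pus). Previous treatment with progesterone compounds was recorded for 1, 4, 2 and 10 of them, in that order, and all other dogs were untreated. Within pyometra the cervix was closed in 9 dogs and open in 8. It was closed in 7 of the 10 treated and 2 of the 7 untreated dogs, so treatment and cervix condition were partly tied. The cycle stage was diestrus in all 21 healthy dogs, in 10 with CEH, 9 with mucometra and 15 with pyometra, and anestrus in the others. Both pyometra dogs in anestrus were untreated. The labels call the mucometra samples hemometra in a second field, and the sample titles were followed. Dogs are named by the case number of their label.

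Keratins are the intermediate filaments of epithelial cells, and each filament is built from a type II and a type I keratin in equal parts. Simple epithelium, such as that lining the uterus and its glands, uses KRT8 with KRT18, and KRT7, KRT19 and KRT23 join them in many glands and ducts. The basal layer of stratified squamous epithelium, such as that of the vagina and the outer cervix, uses KRT5 with KRT14 and depends on TP63, while KRT15 marks basal keratinocytes and KRT17 appears in basal cells, skin appendages and epithelium under stress.

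Array medians differed little over the 69 dogs, from 6.20 to 6.34. KRT18, which the glandular and luminal epithelium of the labelled tissue should express, was present in every dog at 9.24 to 12.56. The most alike pair of arrays belonged to different diagnoses: dog 100 (untreated pyometra) and dog 216 (treated mucometra) correlated at r = 0.987 over all probe sets, against 0.985 for the next pair. Both dogs had very high KRT5. Whether these 2 arrays share a source or were exchanged was not tested and bears on every value of dog 216 and on the contrasts of treatment between lesions, so results that move with the pair are given without it where this changes a call or the value by over 1.5 times. The case numbers ran from 6 to 170 in diestrus and from 100 to 231 in pyometra, and collection order and diagnosis are therefore partly tied. A gene was called changed at a fold of at least 2 with an adjusted p under 0.05. All adjusted p values are from limma, with Benjamini-Hochberg adjustment over 15947 genes, and fold changes are given on the log2 scale with their standard error (SE).

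KRT5 stood apart in pyometra of dogs without progesterone treatment. Its log2 level had a lowest, median and highest value of 4.54, 4.96 and 5.30 in diestrus, 4.53, 4.99 and 5.59 in CEH, and 4.57, 5.17 and 10.23 in mucometra. In the 10 treated dogs with pyometra it lay between 4.61 and 5.71, with a median of 5.02. In the 7 untreated dogs with pyometra the levels were 11.53 (dog 199), 11.13 (dog 100), 9.61 (dog 198), 9.01 (dog 214), 7.15 (dog 217), 5.47 (dog 207) and 4.80 (dog 225). Thus 6 of these 7 dogs were above the highest diestrus dog, 5 of them by a wide gap, and dog 225 was inside the diestrus range. Outside pyometra, high levels were seen in mucometra dogs 216 (10.23) and 200 (7.19), both in anestrus, and no dog of the series lay between 5.71 and 7.15.

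In untreated pyometra KRT5 rose against diestrus by 3.46 on the log2 scale (SE 0.53, adjusted p = 7.87e-06), an 11.0-fold difference. This SE and p rest on 1 spread pooled over both groups, although the untreated dogs spread far more widely than the diestrus dogs. Since the wider spread is in the smaller group, both values are likely too small. Over all 17 dogs with pyometra the rise was 1.48 (SE 0.50, adjusted p = 0.0116), and in treated pyometra the difference was 0.10 (SE 0.09, adjusted p = 0.365). Against CEH the pyometra group as a whole was higher by 1.42 (SE 0.57, adjusted p = 0.0463). This last call did not hold without dogs 100 and 216 (1.13, adjusted p = 0.0750) or without dog 199 (1.10, adjusted p = 0.0738). Against mucometra the difference was 0.80 (SE 0.67, adjusted p = 0.366) and 0.48 without dog 199 (adjusted p = 0.562), and it was 3.11 (SE 0.70, adjusted p = 0.0245) when only untreated dogs of both groups were compared. CEH differed from diestrus by 0.06 (SE 0.08, adjusted p = 0.590) and mucometra by 0.68 (SE 0.30, adjusted p = 0.0574). Without dog 216 the mucometra difference was 0.35 (SE 0.14, adjusted p = 0.0340), under 2-fold.

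KRT17 was higher in every untreated dog with pyometra than in any diestrus dog, in part by a small margin. The 7 untreated dogs had log2 levels of 8.14 (dog 199), 7.31 (dog 100), 5.70 (dog 198), 5.65 (dog 214), 4.98 (dog 217), 4.92 (dog 225) and 4.84 (dog 207), while diestrus dogs lay between 3.05 and 4.82 with a median of 4.48. All 7 were above all 21, although 3 of them by less than 0.2. All diestrus levels and most untreated levels lay below the lowest array median of 6.20. How many of all genes separate groups in this way was not counted, here or for other groups without overlap below. The 4 dogs with the highest KRT17 were the 4 with the highest KRT5 in this group. The rise was 1.54 (SE 0.29, adjusted p = 0.000106). Treated dogs with pyometra lay between 4.20 and 5.0 with a median of 4.52, mostly inside the diestrus range, and their difference from diestrus was 0.20 (SE 0.12, adjusted p = 0.176). Over all dogs with pyometra KRT17 was 0.75 higher than in diestrus (SE 0.24, adjusted p = 0.00764), short of 2-fold.

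TP63 moved over a narrower range. Its log2 level was 4.64 to 5.21 in diestrus (median 4.87), 4.50 to 5.32 in treated pyometra (median 4.88) and 4.78 to 6.58 in untreated pyometra (median 5.22). The highest TP63 levels of the series were those of dogs 199 (6.58), 100 (6.48) and 216 (6.31), the same dogs that were highest in KRT5. Untreated pyometra was 0.59 higher than diestrus (SE 0.16, adjusted p = 0.00444), a 1.51-fold difference and thus no call. KRT15 was 9.06 in dog 199 and 6.23 in dog 100, and no other dog exceeded the highest diestrus level of 6.18. It passed the threshold in no comparison, and it was slightly lower than in diestrus in mucometra (by 0.43, adjusted p = 0.0474) and in treated pyometra (by 0.56, adjusted p = 0.0128).

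**Figure D1:**
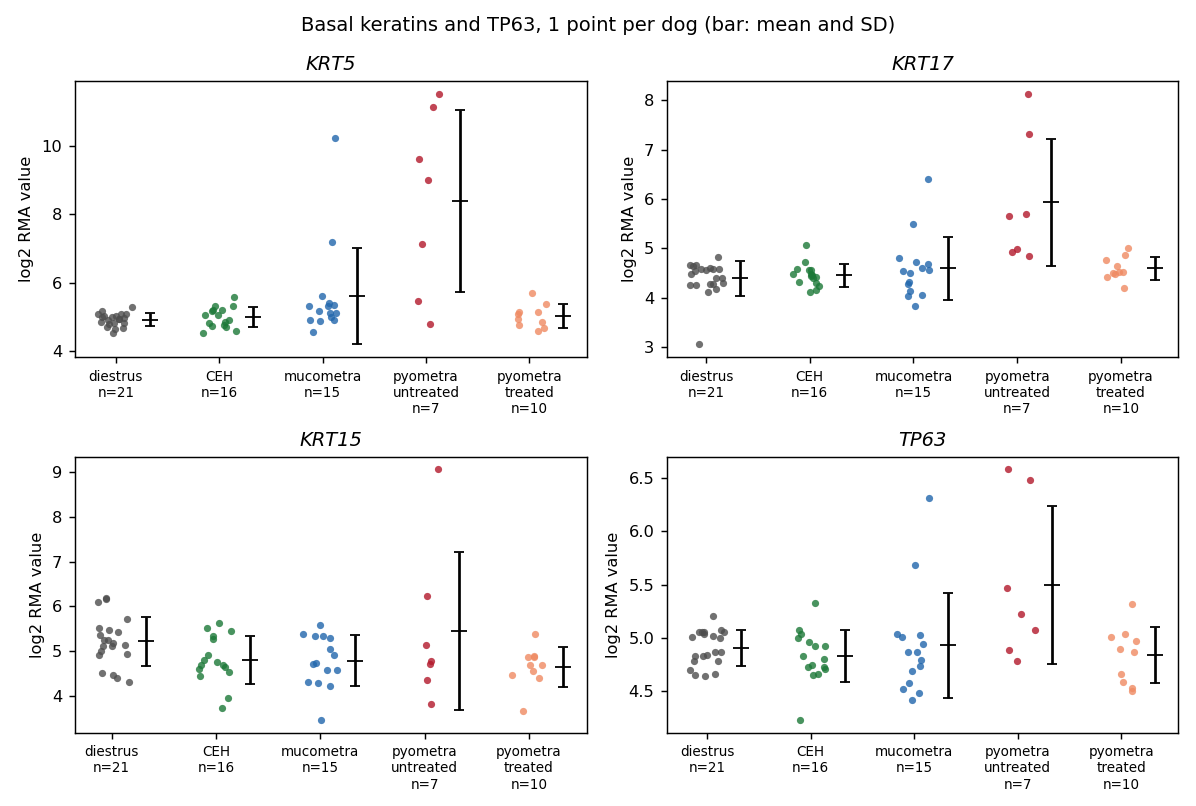
Log2 levels (vertical axes) of KRT5, KRT17, KRT15 and TP63 in 5 groups of dogs, 1 point per dog, with the mean and SD of each group as a bar. KRT5 in untreated pyometra spreads from 4.80 to 11.53, while treated pyometra stays between 4.61 and 5.71 and mucometra holds 2 high dogs at 7.19 and 10.23.

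The question of how pyometra after progesterone treatment differs from pyometra without it was put to these genes directly. Treated pyometra was lower in KRT5 by 3.35 on the log2 scale (SE 0.76, 95% interval -4.94 to -1.76, adjusted p = 0.00604) and in KRT17 by 1.34 (SE 0.38, 95% interval -2.13 to -0.55, adjusted p = 0.0220). These 2 of 9 measured members were called lower and 0 higher, where 1.10% of all genes were called lower, 2.88% higher and 3.99% in either direction. An exact permutation test over the 17 dogs (19448 splits, two-sided) gave p = 0.00118 for KRT5 and p = 0.000411 for KRT17. KRT5 is among the genes the study itself listed for this contrast from these same dogs, so the contrast is no independent evidence for it.

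The KRT5 call held when any 1 of the 17 dogs was left out, with differences from -3.95 to -2.83. KRT17 lost its call without dog 199, where the difference was -0.97 (adjusted p = 0.0251), just under 2-fold, and without dog 100, which gave -1.11 (adjusted p = 0.0581). It was also lost with case number as a covariate (-1.10, adjusted p = 0.0575). TP63 was lower by 0.66 in treated dogs (SE 0.23, adjusted p = 0.0644; exact permutation p = 0.0105), KRT15 by 0.79 (SE 0.52, adjusted p = 0.342) and KRT19 by 0.77 (SE 0.26, adjusted p = 0.0487, under 2-fold). Without dog 199 the KRT15 difference was -0.19 (adjusted p = 0.721), and the KRT19 difference was -0.66 (adjusted p = 0.0998). KRT8 was 0.53 higher (SE 0.23, adjusted p = 0.127; exact permutation p = 0.0465).

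Cervix condition and stage were checked in the same dogs. Among dogs with an open cervix, KRT5 was 5.15, 5.16 and 5.71 in the 3 treated dogs and had a lowest, median and highest value of 4.80, 9.01 and 11.53 in the 5 untreated dogs. With a closed cervix, the 7 treated dogs lay between 4.61 and 5.37 and the 2 untreated dogs were at 5.47 and 11.13. Untreated dogs were thus higher in median in both strata, and with a closed cervix the ranges did not overlap. With cervix condition in the model the treatment difference was -3.22 for KRT5 (adjusted p = 0.0154) and -1.44 for KRT17 (adjusted p = 0.0264), and with diestrus-stage dogs only it was -3.35 (adjusted p = 0.0196) and -1.58 (adjusted p = 0.0227). Closed against open pyometra itself gave 0 called members, as for all genes (0.00%), by limma and by the methods' t-test alike. At an unadjusted p under 0.05 with a 2-fold change there were also 0 members, against 20 genes in all.

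The same contrast was made in the other lesions. In CEH and mucometra together, with diagnosis in the model, 6 treated dogs were higher in KRT5 than 25 untreated dogs by 0.96 (SE 0.41, adjusted p = 0.604), with 5 treated dogs between 4.73 and 5.40 and dog 216 at 10.23. Without dog 216 the difference was 0.06 (SE 0.23, adjusted p = 0.985). No member was called in this comparison, nor any gene (0.00%), and at an unadjusted p under 0.05 with a 2-fold change limma listed 0 members and 11 genes. The difference between the treatment effects in pyometra and in CEH with mucometra was -4.31 for KRT5 (SE 0.82, adjusted p = 0.000623) and -1.82 for KRT17 (SE 0.40, adjusted p = 0.00227). These 2 of 9 members were called, against 3.96% of all genes, and without dogs 100 and 216 the values were -2.95 (adjusted p = 0.00939) and -1.27 (adjusted p = 0.0338).

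Markers of other cells differed between the same groups of pyometra. In these bulk samples, fewer cells of a type and less RNA per cell cannot be told apart. Of 9 measured neutrophil genes, 9 were higher in treated than in untreated pyometra (2.88% of all genes were). Their mean level relative to diestrus ran from 2.20 to 4.48 in treated dogs and from -0.01 to 2.67 in untreated dogs. S100A8, S100A9 and S100A12 of this list are among the genes the study listed for this contrast from these same dogs. The neutrophil count is therefore no independent evidence. Of 12 macrophage and monocyte genes, 6 were higher, with ranges of 1.87 to 3.30 and 0.84 to 2.62. Smooth muscle genes were lower in treated dogs in 3 of 12 cases (1.10% of all genes were), with ranges of -1.99 to 1.03 and 0.17 to 1.41. This was so for 1 of 12 without dog 100 and for 4 of 12 without dog 199. None of 12 stromal fibroblast, 12 endothelial, 6 mesothelial and 13 ciliated cell genes was called, although without dog 199 the endothelial genes VWF and KDR were. The part of these differences in the keratin levels was not tested.

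Among the simple keratins only KRT7, a type II keratin of glands and ducts, was called. Its log2 level had a lowest, median and highest value of 7.68, 8.66 and 10.43 in diestrus, 7.73, 9.14 and 10.13 in CEH, 8.09, 9.30 and 10.01 in mucometra, and 8.63, 9.91 and 10.37 in pyometra. Pyometra dogs were gathered in the upper part of the diestrus range, with none above its highest dog. The rise from diestrus to pyometra was 1.10 (SE 0.20, adjusted p = 1.00e-05), a 2.14-fold difference. KRT7 and KRT5 were the 2 of 9 members called in pyometra against diestrus, where 9.98% of all genes were called.

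KRT7 rose with and without treatment: by 1.06 in treated pyometra (SE 0.24, adjusted p = 0.000367) and by 1.15 in untreated pyometra (SE 0.28, adjusted p = 0.00185). The difference between treated and untreated dogs was -0.08, with a 95% interval of -0.53 to 0.36 (adjusted p = 0.838). It was the 1 member called in treated pyometra against diestrus, where 11.7% of all genes were called. In untreated pyometra KRT5, KRT17 and KRT7 made 3 of 9, against 9.06% of all genes. In CEH and mucometra KRT7 was 0.35 (adjusted p = 0.255) and 0.51 (adjusted p = 0.0477) above diestrus, short of 2-fold.

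KRT18 and its partner KRT8 were lower than in diestrus in CEH, mucometra and pyometra as a whole, but under 2-fold. KRT18 had a lowest, median and highest log2 level of 11.28, 12.01 and 12.56 in diestrus, 9.24, 11.39 and 12.33 in CEH, 10.43, 11.11 and 12.46 in mucometra, and 10.53, 11.62 and 12.39 in pyometra. The groups overlapped, and 7 of 16, 9 of 15 and 7 of 17 dogs with CEH, mucometra and pyometra lay below the lowest diestrus dog. The differences from diestrus were -0.62 in CEH (SE 0.20, adjusted p = 0.0185), -0.73 in mucometra (SE 0.17, adjusted p = 0.000361) and -0.48 in pyometra (SE 0.16, adjusted p = 0.0101). For KRT8 they were -0.49 in CEH (SE 0.17, adjusted p = 0.0348), -0.36 in mucometra (SE 0.14, adjusted p = 0.0315) and -0.57 in pyometra (SE 0.16, adjusted p = 0.00285). In untreated pyometra KRT8 was 0.88 lower than in diestrus (SE 0.22, adjusted p = 0.00175), and 4 of the 7 dogs, those with KRT5 levels of 11.53, 11.13, 9.61 and 7.15, lay below all 21 diestrus dogs. In treated pyometra neither KRT8 nor KRT18 had an adjusted p under 0.05 against diestrus by limma. No treated dog with pyometra lay below the diestrus range in KRT8, and 2 of 10 did in KRT18.

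Cycle stage moved with KRT18. All 6 CEH dogs in anestrus lay below the lowest diestrus dog in KRT18 (9.24 to 11.14), against 1 of the 10 CEH dogs in the diestrus stage (10.83 to 12.33). In mucometra this was so for 5 of 6 dogs in anestrus and 4 of 9 in diestrus. With diagnosis in the model, anestrus was lower than the diestrus stage by 0.86 (SE 0.21, adjusted p = 0.0367), under 2-fold, and 0 of 9 members were called, against 0.282% of all genes. With a 2-fold change and an unadjusted p under 0.05, limma still listed 0 members there. With diestrus-stage dogs only, the KRT18 difference from diestrus was -0.17 in CEH (adjusted p = 0.558), -0.53 in mucometra (adjusted p = 0.0199) and -0.41 in pyometra (adjusted p = 0.0318). For KRT8 these were -0.23 (adjusted p = 0.481), -0.29 (adjusted p = 0.189) and -0.43 (adjusted p = 0.0130). The match of stage is rough, since the study places all healthy dogs in early diestrus and some dogs of each lesion in mid or late diestrus. It also gives a lower median age and higher serum progesterone for the healthy dogs. Neither subphase nor age was in these fits.

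CEH against diestrus, mucometra against diestrus, mucometra against CEH and pyometra against mucometra gave 0 called members, where 1.82%, 6.35%, 0.144% and 3.65% of all genes were called. At an unadjusted p under 0.05 with a 2-fold change limma also listed 0 members in each of the 4, and the methods' t-test called 0. In pyometra against CEH the call was KRT5 alone, 1 of 9 members against 5.95% of all genes.

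KRT19, the small type I keratin without a tail, and KRT23, a type I keratin of glandular epithelium, varied widely inside every group. KRT19 ran from 8.45 to 11.57 in diestrus and KRT23 from 5.04 to 7.75, and neither was called in any comparison. KRT23 was 0.73 lower in mucometra than in diestrus (SE 0.24, adjusted p = 0.0127) and 0.82 lower in treated pyometra (SE 0.32, adjusted p = 0.0318), while untreated pyometra differed by -0.06 (SE 0.33, adjusted p = 0.896). The lowest levels of KRT18 (9.24), KRT8 (5.08) and KRT23 (3.84) in the series all belonged to dog 162, a treated CEH dog in anestrus.

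**Figure D2:**
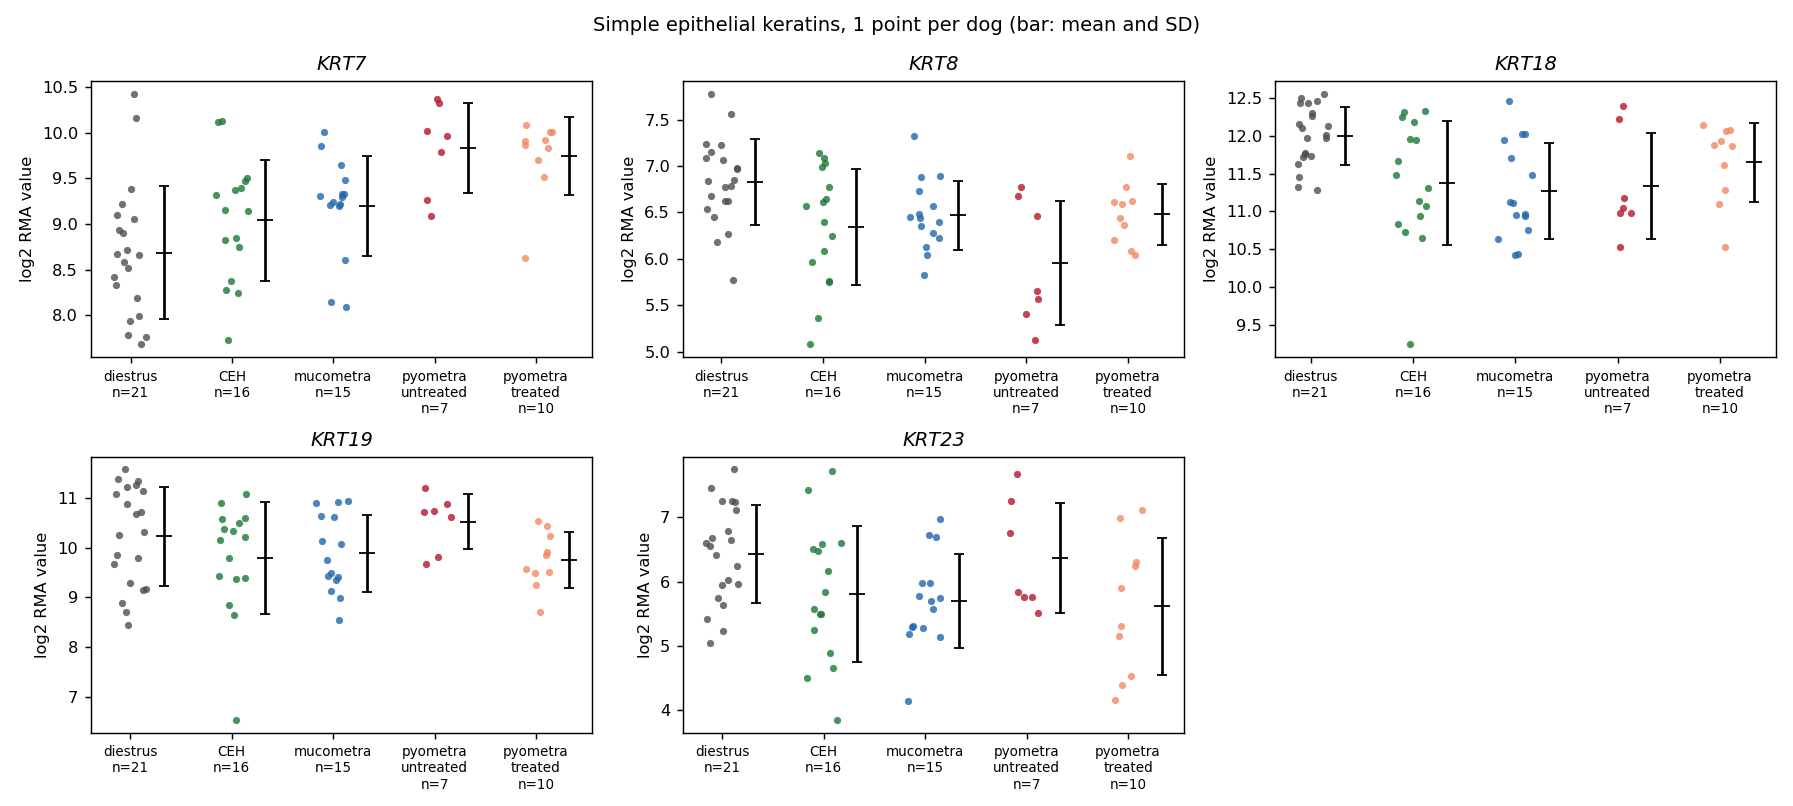
Log2 levels (vertical axes) of KRT7, KRT8, KRT18, KRT19 and KRT23 in 5 groups of dogs, 1 point per dog, with the mean and SD of each group as a bar. KRT7 is higher in both pyometra groups than in diestrus (medians 9.97, 9.89 and 8.66), and KRT18 in the lesions reaches below the lowest diestrus dog at 11.28.

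**Figure D3:**
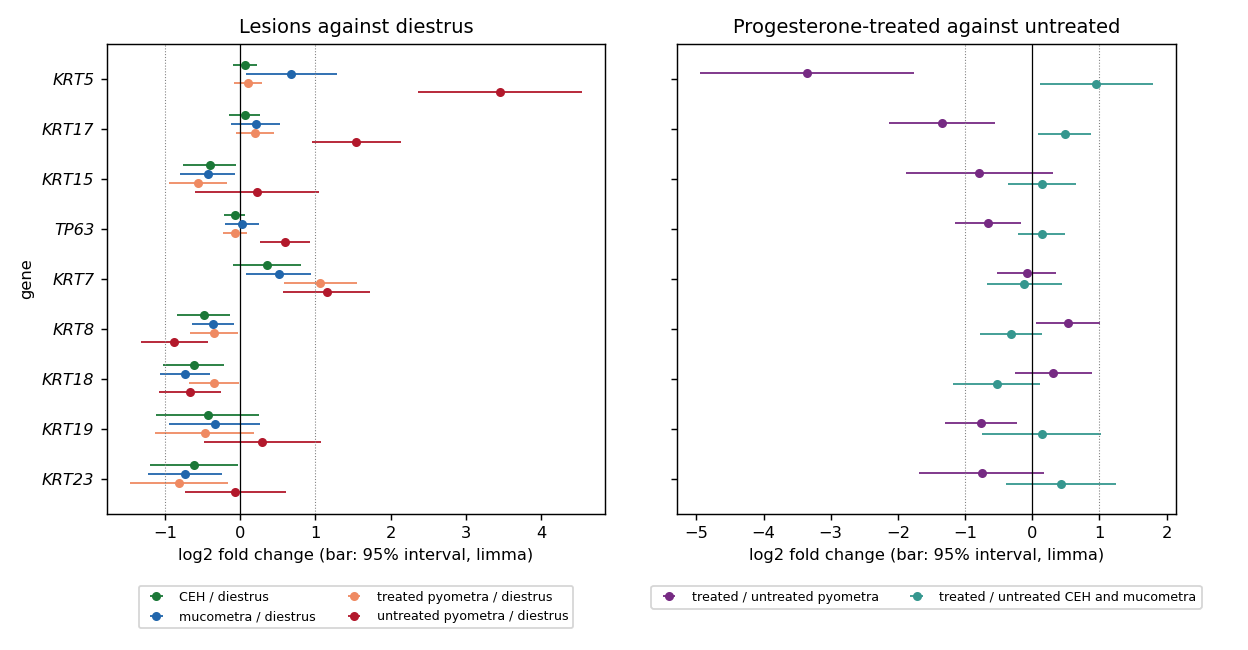
Log2 fold changes of the 9 measured genes (horizontal axes) with 95% intervals from limma, for 4 lesion groups against diestrus (left) and for treated against untreated dogs (right); dotted lines mark 2-fold. KRT5 lies at 3.46 in untreated and 0.10 in treated pyometra, and KRT7 at 1.15 and 1.06.

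Basal and simple keratins were set against each other within each dog. The measure was the mean of KRT5 and TP63 minus the mean of KRT8 and KRT18, each gene taken relative to its diestrus mean. It was 0.00 ± 0.37 (SD, n = 21) in diestrus, 0.55 ± 0.72 (n = 16) in CEH and 0.90 ± 1.21 (n = 15) in mucometra. In pyometra it was 0.37 ± 0.46 (n = 10) in treated and 2.79 ± 2.10 (n = 7) in untreated dogs. The treated dogs spanned -0.10 to 1.21 and the untreated dogs -0.29 to 5.25, with 5 untreated dogs at 2.28 or above.

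Both parts of the measure differed from diestrus in untreated pyometra. The basal part was 2.02 ± 1.66 in untreated and 0.02 ± 0.16 in treated pyometra, and the simple part was -0.77 ± 0.65 and -0.35 ± 0.41. In CEH the measure came from the simple part, at -0.55 ± 0.70, while the basal part was 0.00 ± 0.18. The treated minus untreated difference was -2.43, and -1.38 with all 4 measured basal and all 5 simple genes. It carries no test, since it is a score over the members, of which KRT5 was tested by itself.

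**Figure D4:**
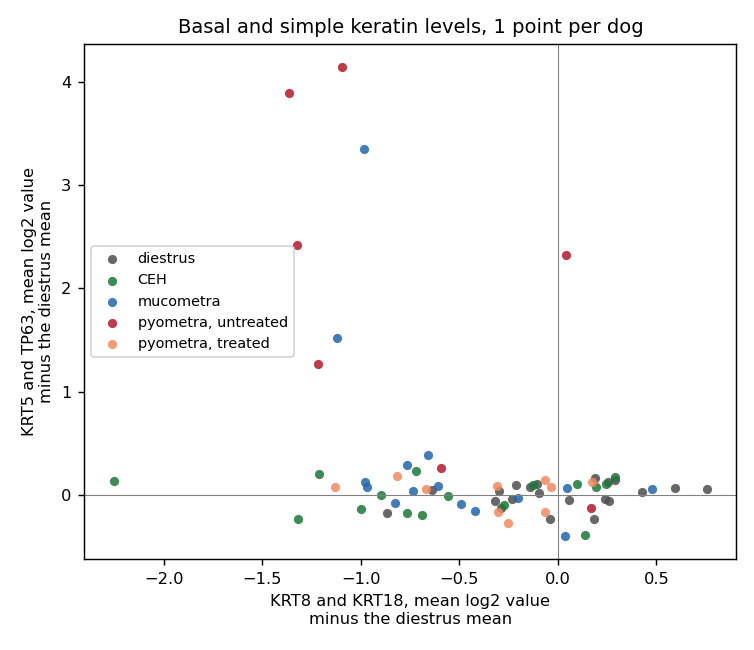
Mean of KRT5 and TP63 (vertical axis) against the mean of KRT8 and KRT18 (horizontal axis), both log2 and relative to the diestrus mean, 1 point per dog. The points high on the vertical axis are 5 untreated pyometra dogs and 2 mucometra dogs, and 6 of these 7 lie left of 0, with dog 214 the exception.

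The dogs highest in KRT5 were not alike in the other basal genes. KRT17 and TP63 were 8.14 and 6.58 in dog 199, 7.31 and 6.48 in dog 100, and 6.40 and 6.31 in dog 216. In dog 198, with KRT5 at 9.61, KRT17 was 5.70 and TP63 was 5.07, inside the diestrus range for TP63. In dog 217, with KRT5 at 7.15, KRT17 was 4.98 and TP63 was 5.22, while dog 200 with nearly the same KRT5 (7.19) had 5.50 and 5.68. KRT8 was 5.66 in dog 199, 5.57 in dog 100, 6.23 in dog 216, 5.13 in dog 198 and 5.41 in dog 217, and 6.68 in dog 214, whose KRT5 was 9.01.

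KRT8 and KRT18, the partner pair, varied together from dog to dog. Over 6 relations computed, Pearson's r was 0.68 in diestrus (n = 21, Spearman's rho 0.65), 0.87 in CEH (n = 16, rho 0.86), 0.62 in mucometra (n = 15, rho 0.47) and 0.80 in pyometra (n = 17, rho 0.88). Permutation p values of r, adjusted over the 6, were 0.00128, 0.00012, 0.0206 and 0.00042, and those of rho were 0.00386, 0.0003, 0.121 and 6e-05. Without the 2 dogs farthest from the median of KRT8, r was 0.53, 0.81, 0.39 and 0.85, so the mucometra value rests on few dogs. KRT5 and TP63 showed no such relation where KRT5 was low: r was -0.11 in diestrus (rho -0.20) and -0.13 in CEH (rho -0.15), with adjusted permutation p values of 0.634 for both r and of 0.465 and 0.587 for rho. Without the 2 farthest dogs r was -0.16 and -0.03. In diestrus KRT5 spanned only 4.54 to 5.30 and TP63 only 4.64 to 5.21. With so little spread these values cannot show whether the 2 genes are related, and they are no contrast to KRT8 and KRT18. In mucometra and pyometra the dogs fell into a low and a high cluster of KRT5, the high one with too few dogs for a correlation.

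The genes whose levels over the 69 arrays were most like those of KRT5 were BARX2, a homeobox transcription factor (r = 0.94), AQP3, a water and glycerol channel of basal keratinocytes (0.88), KRT17 (0.87), CLCA2, a membrane protein of stratified epithelium (0.86), and SFN, the 14-3-3 sigma protein of keratinocytes (0.84). Spearman's rho for these 5 was 0.26 to 0.51, well below r, and the dogs with high KRT5 were few. Nearest to TP63 were CLCA2 (0.83), KRT5 (0.78), AMTN (0.78), KRT17 (0.75) and AQP3 (0.75). All values are descriptions over arrays normalised together.

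BARX2 had levels of 4.63 to 5.46 in diestrus (median 5.11), 4.82 to 5.53 in treated pyometra (median 5.20) and 5.17 to 7.92 in untreated pyometra (median 6.74). It rose in untreated pyometra by 1.55 (SE 0.22) against diestrus and was lower in treated than in untreated pyometra by 1.46 (SE 0.31, adjusted p = 0.00363). CLCA2 rose by 1.26 in untreated pyometra (SE 0.36, adjusted p = 0.00577), and so did AMTN, by 1.11 (SE 0.28, adjusted p = 0.00207). Neither reached 2-fold without dog 199 (0.87 and 0.86) or without dogs 100 and 216 (0.85 and 0.76), while BARX2 stayed called (1.33 and 1.38). AQP3 stayed just short of 2-fold at 0.99 (SE 0.26, adjusted p = 0.00283). These genes were picked for their likeness to KRT5 or TP63 over the same dogs. Their differences between these groups are therefore no separate evidence.

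The likeness of the simple pair was broader. Nearest to KRT8 were KRT18 (r = 0.77, rho 0.79), USP46 (0.76), TOM1L1 (0.73), PAX2, a transcription factor of the developing reproductive tract (0.72), and LCORL (0.72). Nearest to KRT18 were RBM47, an RNA-binding protein of epithelium (0.86), PAX8, a relative of PAX2 found in uterine epithelium (0.86), ITPR3 (0.85), SYT13 (0.85) and SLC44A4 (0.84), with rho from 0.76 to 0.87. Of these genes PAX2 fell by 1.38 (SE 0.20) and SYT13 by 1.13 (SE 0.25) in pyometra against diestrus. Both were picked by likeness over the same arrays, so these falls are no separate evidence.

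Genes of the squamous differentiation programme were read from a list of 36, of which 27 were measured. In untreated pyometra 7 rose and 0 fell against diestrus, where 6.06% of all genes rose and 3.0% fell, with a median log2 fold change of 0.30 over the list against -0.05 over all genes. In treated pyometra 2 rose (median 0.12), where 7.70% of all genes rose and 4.03% fell. SBSN (suprabasin, of the upper epidermis) rose in both, by 4.65 (SE 0.36) and 3.44 (SE 0.44), and its levels were 5.54 to 7.96 in diestrus, 7.93 to 12.19 in untreated and 6.34 to 11.90 in treated pyometra. S100A14 also rose in both, by 1.01 (SE 0.40, adjusted p = 0.0456) and 1.40 (SE 0.31). Mucometra too lay above diestrus in SBSN (medians 7.56 and 5.86), with a highest level of 12.04. SPINK5, a protease inhibitor of the granular layer, rose by 2.81 (SE 0.57) in untreated pyometra, TRIM29 by 1.72 (SE 0.24), SFN by 1.38 (SE 0.25), SCEL (sciellin, of the cornified envelope) by 1.36 (SE 0.24) and SERPINB5 (maspin) by 1.21 (SE 0.41). IVL and LORICRIN, main proteins of the cornified envelope, were not called. SBSN, SPINK5 and TRIM29, and also LAMA3 and EPCAM named below, are in gene lists that the study drew from these same dogs. Their differences are no independent evidence.

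Treated pyometra was lower than untreated pyometra in 2 of the 27, where 1.10% of all genes were called lower. SPINK5 was lower by 2.63 (SE 0.80, adjusted p = 0.0324), with levels of 4.07 to 5.0 in treated and 4.04 to 11.10 in untreated dogs. PPL (periplakin, which ties keratins to the cell border) was lower by 1.12 (SE 0.17, adjusted p = 0.000302). Its levels of 5.95 to 7.04 in treated and 7.12 to 7.98 in untreated dogs did not overlap, and diestrus dogs spanned 6.07 to 7.90. The difference for SBSN was -1.21 (SE 0.79, adjusted p = 0.337). Without dogs 100 and 216, PPL was the 1 gene called lower in this comparison, SPINK5 being at -1.97 (adjusted p = 0.0729). Against diestrus, 6 of the 27 rose in untreated pyometra without those dogs, and 5 without dog 199, SERPINB5 being lost in both and S100A14 in the second.

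**Figure D5:**
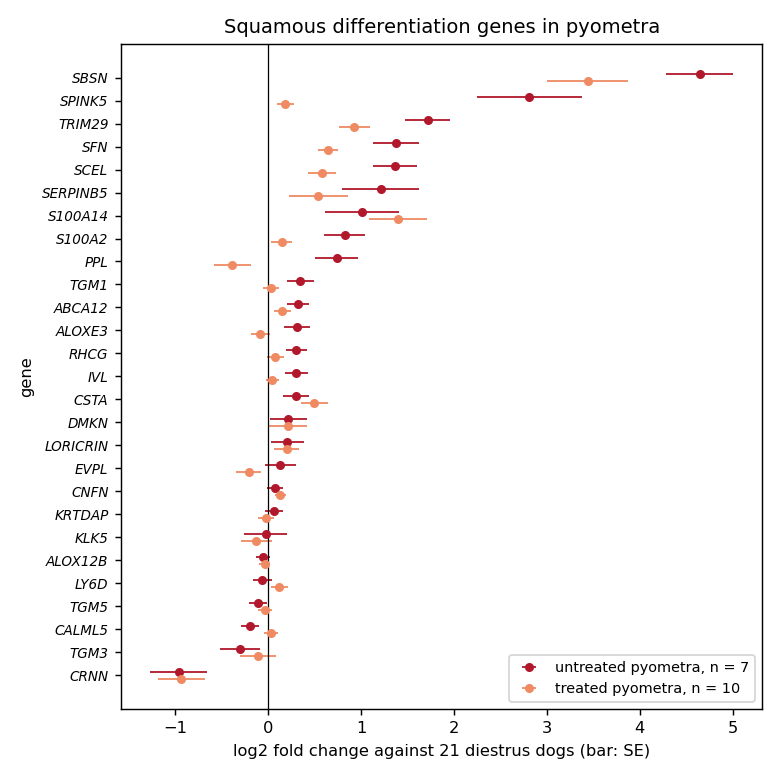
Log2 fold changes against diestrus (horizontal axis, bars are SE) of the 27 measured squamous differentiation genes in untreated (7 dogs) and treated (10 dogs) pyometra. SBSN is high in both (4.65 and 3.44), and SPINK5 is at 2.81 in untreated dogs.

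Of 11 measured basement membrane adhesion genes, which anchor basal cells, 4 rose and 1 fell in untreated pyometra, where 6.06% of all genes rose and 3.0% fell. In treated pyometra 3 rose and 1 fell, against 7.70% and 4.03% of all genes, and the others were not called. LAMB3, a chain of the epidermal laminin, rose by 2.28 (SE 0.38) in untreated and 2.01 (SE 0.31) in treated pyometra, ITGA3 by 1.52 (SE 0.19) and 1.27 (SE 0.16), and CDH3 (P-cadherin) by 1.44 (SE 0.27) and 2.04 (SE 0.25). Mucometra also lay above diestrus in LAMB3 (means 8.10 and 6.55), while its CDH3 was nearer to diestrus (means 6.54 and 5.89). ITGA6, the alpha chain of the hemidesmosome integrin, fell by 1.73 (SE 0.16) and 1.57 (SE 0.12), with no overlap with diestrus. LAMA3 rose by 1.08 (SE 0.33, adjusted p = 0.00906) in untreated pyometra. DST (dystonin, the hemidesmosome plakin) was the 1 gene of the 11 called between treated and untreated pyometra, where 3.99% of all genes were called. It was 8.50 to 9.38 in treated and 9.52 to 10.43 in untreated dogs, lower by 1.04 (SE 0.15, adjusted p = 0.000166), and without dogs 100 and 216 it fell just short of 2-fold (-0.98, adjusted p = 0.000661).

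Of 13 desmosome genes, 2 rose and 1 fell in untreated pyometra, against the same 6.06% and 3.0% of all genes. DSG3, the desmoglein of basal squamous cells, rose by 1.53 (SE 0.31) and PKP2, the plakophilin of simple epithelium, by 1.49 (SE 0.22), while DSC3 fell by 1.10 (SE 0.24), a call not made without dog 199. In treated pyometra PKP2 rose by 1.28 (SE 0.22), while DSC3 fell by 1.44 (SE 0.22) and PERP, a desmosome protein under p63 control, by 1.04 (SE 0.26). Among 19 measured p63 partners and regulators of stratification, TFAP2A rose by 1.50 (SE 0.26), FGFR2 by 1.31 (SE 0.31) and TFAP2C by 1.29 (SE 0.16) in untreated pyometra, and ZNF750, a driver of terminal differentiation, fell by 1.14 (SE 0.36, adjusted p = 0.0119). These 4 of 19 stand against 9.06% of all genes. In treated pyometra against diestrus 0 of 19 were called by limma, against 11.7% of all genes.

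Of 24 measured adhesion and polarity genes of simple epithelium, 6 fell and 2 rose in treated pyometra against diestrus, where 4.03% of all genes fell and 7.70% rose, and 16 were not called. In untreated pyometra 3 fell and 1 rose, against 3.0% and 6.06% of all genes, and without dog 100 these were 2 and 2. OCLN (occludin, of tight junctions) fell by 1.45 (SE 0.16) in treated and 1.24 (SE 0.20) in untreated pyometra and MARVELD3 by 1.13 (SE 0.14) and 1.10 (SE 0.19). In treated dogs GRHL2 fell by 1.24 (SE 0.15) and EPCAM, a surface marker of simple epithelium, by 1.23 (SE 0.16). The mucin MUC1 rose in both, by 2.36 (SE 0.54) and 2.34 (SE 0.64). Such shifts were not limited to pyometra: in mucometra against diestrus 3 of the 24 fell and 1 rose, where 6.35% of all genes were called in either direction. Mean MUC1 was 10.51 in mucometra, 10.65 in treated and 10.63 in untreated pyometra, and 8.29 in diestrus. For OCLN these means were 7.89, 7.54, 7.75 and 8.98. None of the 24 was called between treated and untreated pyometra.

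Of 42 other keratin genes on the array, 0 were called in any of the 13 comparisons by limma, while 9 of them in untreated pyometra against diestrus had an adjusted p under 0.05 without reaching 2-fold. The largest differences there, singled out after their values were seen, were those of KRT6A (0.86, SE 0.25, adjusted p = 0.00626) and KRT13 (0.62, SE 0.21, adjusted p = 0.0172), keratins of the suprabasal layers. The size of both differences leaned on dog 100, which had 10.10 and 7.39. Without it the differences were 0.44 (adjusted p = 0.00374) and 0.26 (adjusted p = 0.0242). Other untreated dogs above the highest diestrus dog were 214 (7.69) and 199 (7.39) in KRT6A, and 214 (5.24) and 198 (5.20) in KRT13. The untreated medians of 7.15 and 4.84 were inside the diestrus ranges of 6.22 to 7.22 and 4.17 to 4.90, and the treated medians were 6.67 and 4.85. The highest mucometra levels, 9.21 and 6.08, were those of dog 216.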

How the data were processed

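The authors ran RMA (background correction, quantile normalization, probe summary) over the 69 arrays, and the deposited values are log2 levels of 32391 probe sets. The methods also name limma for the normalization. Values were used as deposited, with no centring. Symbols came from the platform annotation: 370 probe sets carry several symbols and 15476 none, and these were not named. Of several probe sets with 1 symbol the one of highest mean was kept, which set 598 aside.

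Diagnosis came from the sample titles. Treatment, cervix condition and stage of each dog were read from the annotated clustering figure of the study, with group totals as its methods give them. The fold and adjusted p thresholds are those of the methods.

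Each comparison was fitted on its own groups with limma 3.58.1 (lmFit, eBayes) in R 4.3.3, checked on simulated arrays with the same spread in both groups. The fits assume such equal spread, which KRT5 and other genes high in few dogs did not have. Treatment and stage in CEH and mucometra had diagnosis as a factor. Exact permutations used all splits of the 17 dogs, and correlations used 100000 permutations (Python 3.11.15, SciPy 1.17.1). The members and the 12 gene lists (170 of 191 genes measured) were chosen with earlier results of these data known. Genes outside the members were named where they were among the 4 largest calls of a list in a comparison, or the 5 most like KRT5, TP63, KRT8 or KRT18; SCEL, SERPINB5, LAMA3, IVL, LORICRIN, VWF, KDR, KRT6A and KRT13 fall outside this rule and were named after their values were seen. Alternatives were a joint fit of all dogs, other probe set rules, filters, centring, priors and weights, covariates, subsets of dogs and the methods' t-test. The number of arrays limits the precision of all values, and p values measure the spread between dogs.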

Additional observations from a re-analysis of the deposited data

Results flagged for a closer look

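Dogs far from the rest of their group were looked for in 36 sets, the 9 measured genes in treated, untreated, closed and open pyometra, with Dixon's test at the 95% level, which by chance picks about 1 set in 20. It picked 7. In closed pyometra dog 100 stood apart in KRT5 (11.13, next 5.47), KRT17 (7.31, next 5.0) and TP63 (6.48, next 5.32). In open pyometra dog 199 stood apart in KRT15 (9.06, next 5.14), KRT17 (8.14, next 5.70) and TP63 (6.58, next 5.47). In treated pyometra dog 229 was low in KRT7 (8.63, next 9.52). Dogs 100 and 199 were both untreated, and the closed and open sets mix treated with untreated dogs. Neither was picked when the untreated dogs were taken alone. The sets share dogs, and the basal genes varied together in pyometra, so the picks are not independent of each other or of the treatment contrast.

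The effect of treatment differed between pyometra and the pair of CEH and mucometra, by the interaction term in limma over 48 dogs, for KRT5 (-4.31, SE 0.82, adjusted p = 0.000623) and KRT17 (-1.82, SE 0.40, adjusted p = 0.00227).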

How the results depend on the processing

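The number of called members was recomputed under up to 14 alternatives per comparison, besides leaving out single dogs. It stayed at 0 under all those run for CEH and mucometra against diestrus, mucometra against CEH, treatment and stage in CEH and mucometra, and closed against open pyometra. It was 2 or 3 in pyometra against diestrus, 1 in treated and 2 or 3 in untreated pyometra against diestrus. In pyometra against CEH, with 1 called gene, the count was 0 with all probe sets in the adjustment, with array weights, with the methods' t-test, with diestrus-stage dogs only, without dogs 100 and 216 and without dog 199, and 2 with untreated dogs only. In pyometra against mucometra it was 2 (KRT5 and KRT17) with untreated dogs only, against 0 otherwise. In treated against untreated pyometra, with 2 called genes, it was 1 with genes of a median of at least 5 (KRT17 is below it and was not tested), with case number as a covariate, without dogs 100 and 216 and without dog 199, and 1 to 2 when single dogs were left out; KRT5 was called in all. For the difference of the treatment effects it was 1 with genes of a median of at least 5. No difference of a called gene changed sign. The basal minus simple difference between treated and untreated pyometra was -2.43, -2.31 with medians, -1.38 with all members and -2.94 to -2.02 when single dogs were left out. Leaving out dog 199, and dogs 200 and 216, were chosen after seeing the data. No paired analysis was possible because the case numbers are not shared between groups. The causes of these shifts were not tested. Small groups (7 untreated dogs with pyometra, 6 treated dogs with CEH or mucometra) and the reading of treatment from a figure limit these comparisons, and KRT14 was not analysed here.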
